A study of Musa acuminata AAA Group with 12 samples.

Results

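The coating by day interaction asks whether banana pulp changed between day 1 and day 7 of ripening by the same amount in chitosan-coated as in uncoated fruit. For each gene it is the difference (7A minus 1A) minus (7K minus 1K), taken on the scale log2(FPKM + 1), where FPKM is a fragment number divided by gene length and by the mapped fragments of the library. All 12 of the 12 libraries of the series enter it, and 19745 of 35273 gene rows had an FPKM of 1 or more in 3 or more libraries and were tested. Cavendish bananas (Musa acuminata, AAA Group) were coated with 1.25% chitosan or left uncoated, and RNA of the fruit pulp was sequenced in 4 groups of 3 biological replicates, lettered a to c. Coated pulp is named 7A when sampled on day 7 and 1A on day 1, and uncoated control pulp is named 7K on day 7 and 1K on day 1. Ethylene-treated fingers were used throughout, so all 4 groups share this treatment. Pulp was extracted whole, and fewer cells of a type cannot be told apart from less RNA per cell. The tables give gene IDs of the DH Pahang version 2 annotation without product names, and 0 of these IDs matched the gene table of another banana assembly (Cavendish_Baxijiao_AAA). No gene therefore carries a function here, and neither pulp markers nor ripening pathways were checked.

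Banana is a climacteric fruit, in which a burst of ethylene starts and drives ripening. Pulp starch is then broken down to sugars, cell walls are loosened and aroma compounds appear, with broad changes of transcription. Chitosan is a polymer made by removing acetyl groups from chitin, a component of fungal walls and arthropod shells. As a film on the peel it slows the exchange of water and gases, and plants are known to respond to chitin-derived fragments with defence reactions. The coating was applied to the peel while RNA was taken from the pulp beneath it. A gene that changes with ripening alone, or that differs with coating by the same amount on both days, has an interaction of 0.

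Read composition and implied fragment number differed between libraries. The number of fragments implied by the confidence bounds of the deposited FPKM, summed over genes, was smallest in 7A_c, at 6136363, and ran over 11078141 to 16553611 in the other 11. The study lists 7A_c among its libraries with more reads and with a mapped share within the range of the rest, so this derived number does not measure sequencing depth there, and the difference was not resolved. Genes with an FPKM above 0 numbered 23164 in 7A_c and 24197 to 26048 in the others. By the GC percentage of the reads listed for each library by the study, the 12 libraries were cut here into a lower group of 5 and a higher group of 7. The cut falls between neighbouring whole percentages. The FPKM summed over genes ran over 887932 to 969329 in the lower and 738360 to 813937 in the higher group. The lower group holds 1 library of 7A, 2 of 1A, 1 of 7K and 1 of 1K, so that 1A alone holds more lower than higher GC libraries. Because 1A differs from the other groups in this balance, interactions are also given separately for the lower and the higher GC group. Single genes are given with the position of the tables, whose start may count from 0 or from 1.

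Pulp of coated and uncoated fruit changed differently between the days in 470 genes, which is 2.38% of the tested genes (limma, adjusted p under 0.05). The interaction was negative in 337 genes (1.71% of the tested genes) and positive in 133 (0.674%), a negative value meaning that the coated pulp changed downwards relative to the control pulp. The median absolute value of these interactions was 1.51 on the log2 scale, and 428 were at least 1, 111 at least 2 and 15 at least 4. The smallest was 0.72, and the threshold on the adjusted p favours large values. Over all tested genes the median interaction was -0.07, and the middle 90% of the genes lay between -1.07 and 0.82. By the sign of the mean day change alone, coated and control pulp moved in opposite directions in 169 of the 470 genes (36.0%), against 14.8% of all tested genes. No size or test was asked of either change, so a negligible change in one treatment counts too. The coating difference was larger at day 1 in 424 of the 470, against 61.2% of all tested genes. Both counts use the means that make up the interaction and are descriptions. At an unadjusted p under 0.05 limma gave 2735 genes. A block for the GC group gave 3945 genes, among them all 470. The count was 202 without 7A_a, 211 without 7A_b, 184 without 1A_a, 192 without 7K_b, 246 without 7K_c, 161 without 1K_a and 200 without 1K_b. Without 7A_c it was 504, with 319 negative and 185 positive and a median over all tested genes of 0.05. The excess of negative values was smaller under other scalings, with 375 negative and 253 positive after median-of-ratios scaling, 306 and 217 after quantile normalization and 159 and 114 with voom on the implied fragments. With the GC block and quantile normalization together it turned to 1595 negative and 1760 positive, and no direction is given for the set. Scaling to a common FPKM sum gave 184 negative and 104 positive and moved the median of all tested genes by 0.117, to 0.04.

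**Figure D1:**
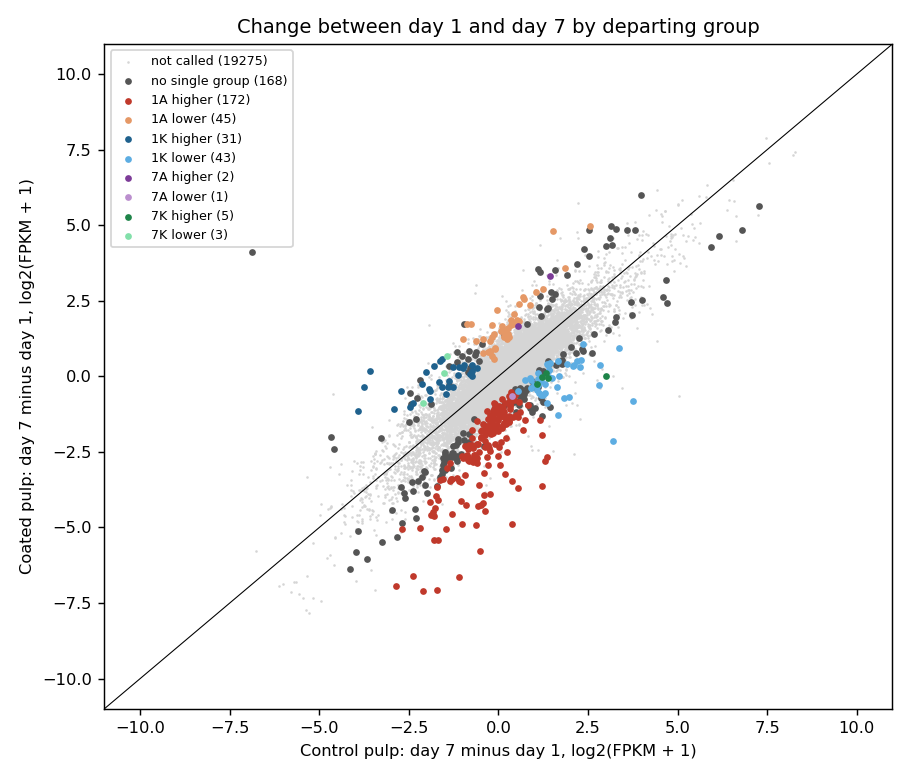
Change between day 1 and day 7 in log2(FPKM + 1) in coated pulp (vertical axis) and in control pulp (horizontal axis), 1 point per tested gene, with the 470 genes of the interaction coloured by departing group and the line of equal change drawn. The 172 genes in which 1A lies above the other groups lie below the line, and the gene far from all others at the upper left is Ma09_g21730, which rests on 0 to 2 implied fragments a library.

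The genes were sorted by which of the 4 group means departs from the other 3, although all 4 enter every interaction. A group was called departing when its mean lay outside the other 3 and its gap to the nearest of them exceeded their range. A single group departed in 302 of the 470 genes, and this was nearly always a day 1 group. The departing group was 1A in 217 genes (46.2% of the 470, against 13.4% of all tested genes), 1K in 74 (15.7% against 7.53%), 7K in 8 (1.70% against 4.92%) and 7A in 3 (0.638% against 3.38%). In the other 168 genes (35.7% against 70.8%) no single group departed by this rule, though the libraries of a group can still stand clear. When genes were sorted by libraries of the farthest group not overlapping the other 9, 15 of the 470 had no departing group and 297 had 1A. Both sortings use the same libraries as the interaction and are descriptions without a test. By the rule on means, day 7 groups departed in 11 genes and day 1 groups in 291. The most frequent departing group was 1A in every alternative tried, from 88 genes without 1K_a to 973 with the GC block. In that GC block fit day 7 groups departed in 260 genes and day 1 groups in 1577.

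The coating difference on each day, tested in the same fit, and the day change of each treatment share the group means that make the interaction and the classes, so their counts over members are descriptions, printed beside the share over all tested genes with nothing read from it. At day 7 coated and control pulp differed in 0.142% of all tested genes (0.081% higher and 0.0608% lower in coated pulp), and at day 1 in 5.63% (3.46% higher and 2.16% lower). At day 7 a coating difference passed in 1 gene with 7A lower, 3 with 7K lower and 1 with 7K higher. At day 1 coated pulp was higher in 169 of the 172 genes with 1A higher and in all 43 with 1K lower. On that day it was lower in all 45 genes with 1A lower, all 31 with 1K higher and 2 of the 3 with 7K lower. Among the genes without a departing group coated pulp was higher in 4 and lower in 7 at day 7, and higher in 82 and lower in 42 at day 1. Day 7 and day 1 differed in 47.3% of all tested genes in coated pulp and in 45.9% in control pulp. The 3 libraries of the departing group did not overlap the other 9 in all 74 genes of 1K, all 3 of 7A and all 8 of 7K, where 6.33%, 3.03% and 6.45% of all tested genes had such a group.

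**Figure D2:**
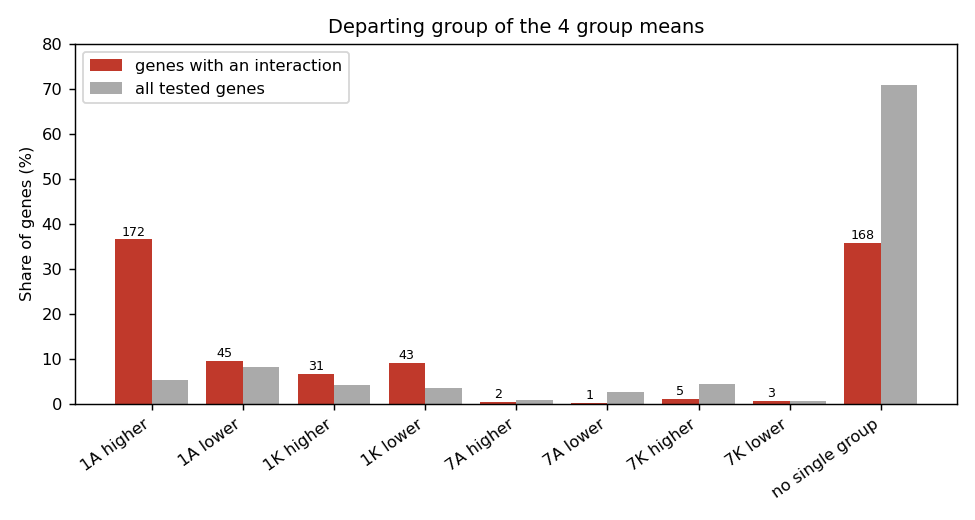
Share of the 470 interaction genes (left bars, with their number) and of all 19745 tested genes (right bars) by departing group and side, in percent. The class with 1A higher holds 36.6% of the interaction genes and 5.22% of the tested genes.

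The largest class was a high level in coated pulp at day 1, with 172 genes in which 1A lay above 7A, 7K and 1K. Their median FPKM over genes was 1.82 in 7A, 14.5 in 1A, 1.39 in 7K and 2.81 in 1K. By library the median was 1.82, 1.77 and 1.59 in 7A, 15.3, 12.5 and 15.8 in 1A, 1.23, 1.55 and 1.56 in 7K and 2.23, 2.79 and 2.86 in 1K. Choosing the class on these same libraries favours the separation of the 3 coated day 1 medians from the other 9. The mean FPKM of 1A exceeded the next highest group by a median of 5.03-fold, by at least 2-fold in 144 genes and by at least 10-fold in 43. The next highest group was 1K in 102 genes, 7K in 36 and 7A in 34. In 42 of the 172 genes the other 3 groups all had a mean FPKM under 1, and in 26 the mean FPKM of 1A was at least 100. The filter of 3 libraries was met by the other 9 libraries alone in 122 of the 172 genes, and the rest entered the test through 1A, where they are high. Over those 122 the median excess of 1A was 3.61-fold, and it was at least 10-fold in 26. The 1A libraries did not overlap the other 9 in 171 of the 172 genes, which the sorting favours, and in 12% of all tested genes. Medians over the class were -0.01 for the coating difference at day 7 and 1.71 for that at day 1, and -2.15 for the day change in coated and -0.28 for that in control pulp, all on the log2 scale. In control pulp 58 of the 172 genes fell between day 1 and day 7 and 8 rose, where 14.8% of all tested genes fell and 31.1% rose. The gene span in the table had a median of 1993 bp in this class, 2518 bp over the 470 genes and 4285 bp over all tested genes. With voom on the implied fragments the class held 59 genes and the opposite class, with 1A lower, 48, while a pseudocount of 0.1 gave 100 and 47 and the GC block 664 and 309. The class held 84 genes without 7A_a, 82 without 7A_b, 81 without 1A_a, 82 without 7K_b, 96 without 7K_c, 70 without 1K_a and 85 without 1K_b, and the class with 1A lower held 18 to 25 when each of these was left out in turn.

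Ma06_g06180 (chromosome 6, 4533300 to 4534127) had the largest departure of all genes that met the naming rule. Its FPKM was 0.655, 0.474 and 1.33 in 7A, 213, 212 and 310.4 in 1A, 0, 0.555 and 0.34 in 7K and 2.03, 2.78 and 5.30 in 1K. The 3 libraries of 1A lay at 212 or above and all others at 5.30 or below, with 7K_a listed at 0. The interaction was -5.38 ± 0.43 (SE, limma adjusted p = 0.000838), made of a coating difference of 0.48 (adjusted p = 0.847) at day 7 and of 5.86 (adjusted p = 8.16e-06) at day 1, with -4.28 in the lower and -6.20 in the higher GC group. Its adjusted p lay between 9.52e-06 and 0.0592 over 25 alternatives, and voom alone put it above 0.05. Ma03_g09020 (chromosome 3, 6626558 to 6627654) was next by size of departure among those genes. Its FPKM was 29.2, 26.0 and 69.2 in 7A, 5940, 5947 and 2990 in 1A, 12.3, 13.2 and 35.5 in 7K and 104, 117 and 209 in 1K. The 1A libraries again stood apart from all others, and in every group the lower GC libraries lay above the higher GC ones. The interaction was -4.09 ± 0.70 (SE, limma adjusted p = 0.0157), with -3.88 in the lower and -3.70 in the higher GC group. The FPKM of this gene did not follow its own confidence bounds, which imply 284, 263 and 339 fragments in 7A, 2322, 2315 and 2227 in 1A, 163, 126 and 331 in 7K and 710, 836 and 1134 in 1K. The FPKM that 1 fragment stood for, relative to the median library, was 21.2, 23.3 and 9.84 in 1A and between 0.790 and 1.48 in the other 9 libraries. With voom on the fragments the interaction was -0.38 (adjusted p = 0.878), and over all 25 alternatives the adjusted p lay between 2.28e-07 and 0.878. Without 7A_a, 1A_a, 1K_a or 1K_b it was 0.0504 to 0.0541. Such a shift by more than 1 on the log2 scale between groups occurred in 1 of the 124 genes of the class with at least 5 fragments in at least 1 library of every group, and in 48 of 18323 tested genes (0.262%).

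**Figure D3:**
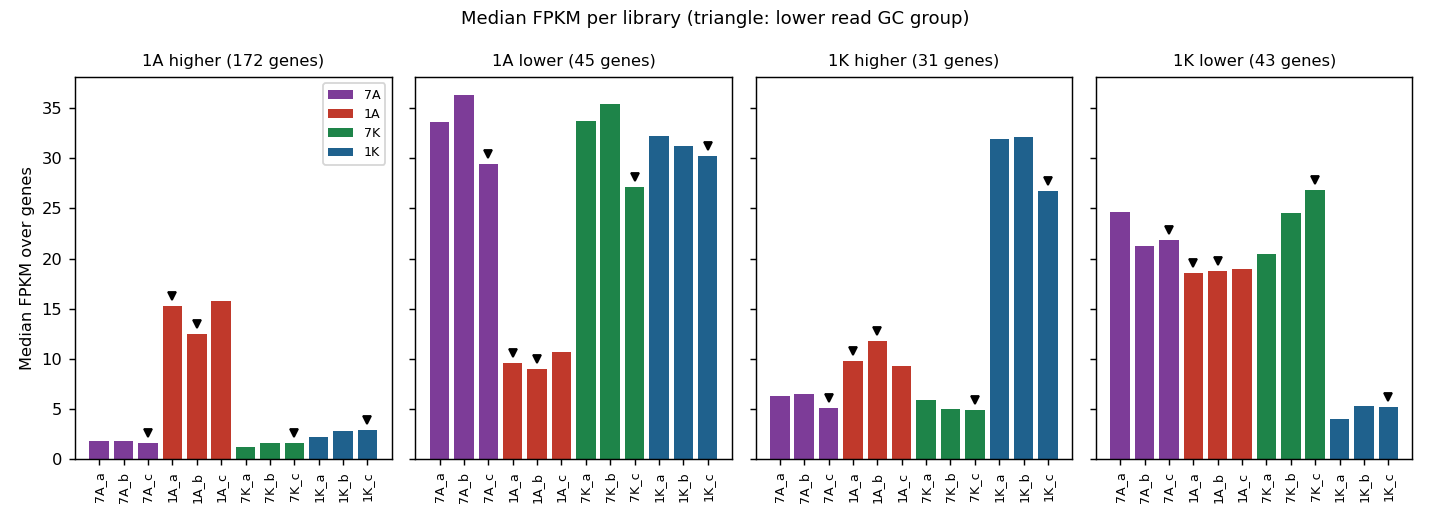
Median FPKM over the genes of each of the 4 day 1 classes, 1 bar per library, with triangles over the libraries of the lower read GC group. In each class the 3 libraries of the departing group lie together and apart from the other 9, in both GC groups. Choosing the classes on these same libraries favours this separation.

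Coated pulp at day 1 was the low group in 45 genes. Their median FPKM was 31.6 in 7A, 10.7 in 1A, 32.0 in 7K and 33.1 in 1K, and 7 of the 45 had a mean FPKM under 1 in 1A. The nearest other group exceeded 1A by a median of 2.49-fold, and by at least 5-fold in 6 genes. The median interaction was 1.42, with 0.17 for the coating difference at day 7 and -1.14 for that at day 1. Ma04_g21640 (chromosome 4, 24149913 to 24150887) had an FPKM of 120.3, 127 and 196 in 7A, 3.34, 4.78 and 3.02 in 1A, 137, 159 and 263 in 7K and 22.8, 26.3 and 44.1 in 1K. All 3 libraries of 1A lay under the lowest library of 1K, and the day 7 libraries of both treatments overlapped. The interaction was 2.42 ± 0.45 (SE, limma adjusted p = 0.0212), with a day change of 4.96 (adjusted p = 8.23e-07) in coated and 2.55 (adjusted p = 9.59e-05) in control pulp. Within the GC groups it was 2.74 in the lower and 2.42 in the higher GC group, and the adjusted p lay between 1.02e-05 and 0.072 over 25 alternatives, with 0.0504 to 0.072 without 7A_b, 1A_a, 7K_b or 1K_b, 0.0638 after median-of-ratios scaling and 0.0562 with a pseudocount of 5. Ma05_g14110 (chromosome 5, 10265404 to 10267568) had an FPKM of 1551, 1503 and 815 in 7A, 33.5, 36.1 and 65.8 in 1A, 1431, 1187 and 815 in 7K and 467, 452 and 272 in 1K. The gene rose in both treatments, by 4.81 (adjusted p = 2.48e-06) in coated and by 1.53 (adjusted p = 0.00533) in control pulp, and the day 7 values overlapped. Its interaction was 3.28 ± 0.51 (SE, limma adjusted p = 0.0102), with 2.93 in the lower and 3.01 in the higher GC group, and it stayed under 0.05 in all 25 alternatives (adjusted p between 2.28e-07 and 0.0406).

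Uncoated pulp at day 1 departed from the other groups in 74 genes, as the high group in 31 and the low group in 43. The 74 became 28 without 7A_a, 36 without 7A_b, 26 without 1A_a, 44 without 1A_b, 30 without 7K_b, 37 without 7K_c, 26 without 1K_a and 31 without 1K_b. In the 31 genes with 1K higher the median FPKM was 5.84 in 7A, 10.3 in 1A, 4.86 in 7K and 33.2 in 1K. The group nearest to 1K was 1A in 16 genes, 7A in 14 and 7K in 1. Between the days 9 fell and 1 rose in coated pulp, where 18.2% of all tested genes fell and 29.2% rose. All 31 fell in control pulp, where 14.8% of all tested genes fell, and choosing genes with a high 1K mean favours this. Ma03_g17050 (chromosome 3, 22336331 to 22337126) had an FPKM of 3.08, 3.70 and 2.82 in 7A, 4.49, 2.68 and 1.56 in 1A, 1.79, 2.37 and 3.00 in 7K and 39.5, 29.7 and 51.8 in 1K. Only 1K was high, and the other 3 groups overlapped each other. The interaction was 3.76 ± 0.41 (SE, limma adjusted p = 0.00214), with a day change of 0.17 (adjusted p = 0.653) in coated and -3.59 (adjusted p = 5.13e-06) in control pulp and with 3.49 in the lower and 4.30 in the higher GC group. Ma09_g05790 (chromosome 9, 3711106 to 3728361), which spans 17255 bp, had 5.66, 7.21 and 2.51 in 7A, 5.27, 5.35 and 9.24 in 1A, 2.32, 3.12 and 2.26 in 7K and 67.8, 55.2 and 26.7 in 1K. Within 1K the lower GC library was the lowest at 26.7 and still lay above all 9 others. Its interaction was 3.38 ± 0.55 (SE, limma adjusted p = 0.0128), with 2.25 in the lower and 3.60 in the higher GC group.

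In the 43 genes with 1K lower the median FPKM was 22.3 in 7A, 17.5 in 1A, 22.0 in 7K and 4.68 in 1K. Between day 1 and day 7, 6 of the 43 rose and 6 fell in coated pulp, where 29.2% of all tested genes rose and 18.2% fell. All 43 rose in control pulp, where 31.1% of all tested genes rose, and choosing genes with a low 1K mean favours this. Ma09_g24220 (chromosome 9, 35902483 to 35906964) had the smallest adjusted p of all tested genes. Its FPKM was 28.5, 28.7 and 21.8 in 7A, 54.6, 36.0 and 50.8 in 1A, 30.2, 31.1 and 23.0 in 7K and 1.17, 0.971 and 1.28 in 1K. The level in control pulp at day 1 was near 1 in every library, and the other 9 libraries lay at 21.8 or above. The interaction was -4.56 ± 0.28 (SE, limma adjusted p = 8.32e-05), with -4.39 in the lower and -4.74 in the higher GC group. Ma06_g36310 (chromosome 6, 35776493 to 35778277) had 39.6, 28.5 and 68.9 in 7A, 249, 187 and 153 in 1A, 28.5, 56.3 and 69.6 in 7K and 3.37, 3.84 and 6.35 in 1K. Here 1A was not at the day 7 level but above it, so that the gene fell in coated pulp by 2.15 (adjusted p = 0.00112) and rose in control pulp by 3.19 (adjusted p = 8.46e-05) on the log2 scale. Its interaction was -5.34 ± 0.55 (SE, limma adjusted p = 0.00172), with -4.90 in the lower and -5.32 in the higher GC group. The 4 genes named for 1K passed the test in all 25 alternatives, with adjusted p-values of at most 0.0438.

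**Figure D4:**
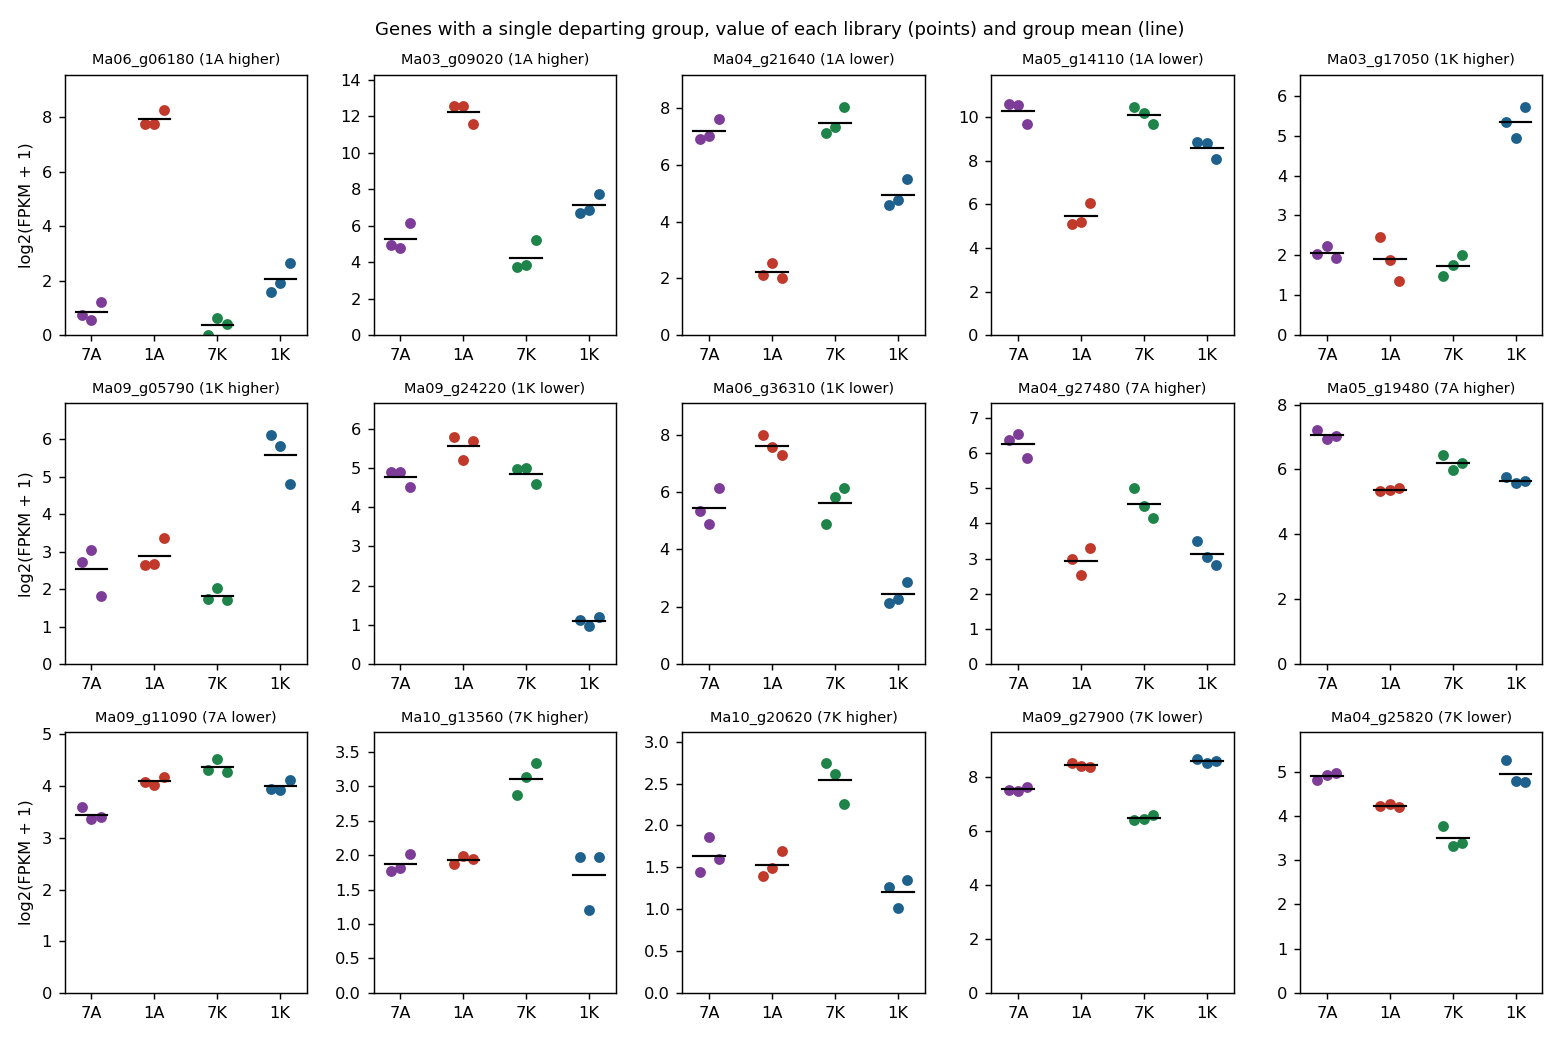
Values of log2(FPKM + 1) in each library for the 15 named genes with a single departing group, with 3 points a group, lines for the group means and a separate vertical scale in each panel. The 3 points of the departing group named in each title do not overlap the other 9, as the naming rule requires.

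A day 7 group departed in few genes. Coated pulp at day 7 departed in 3 genes, as the high group in 2 of them and as the low group in 1. Ma04_g27480 (chromosome 4, 28654901 to 28662767) had an FPKM of 81.5, 91.8 and 56.9 in 7A, 6.91, 4.74 and 8.77 in 1A, 31.4, 21.5 and 16.8 in 7K and 10.3, 7.23 and 6.004 in 1K. Both treatments were low at day 1 and both rose, the coated pulp by 3.32 (adjusted p = 8.38e-06) and the control pulp by 1.44 (adjusted p = 0.00241), and the coating difference at day 7 was 1.70 (adjusted p = 0.0647). The interaction was 1.88 ± 0.42 (SE, limma adjusted p = 0.045). Ma05_g19480 (chromosome 5, 27932329 to 27940830) had 147, 121 and 130.3 in 7A, 39.6, 40.6 and 41.7 in 1A, 86.0, 62.5 and 71.8 in 7K and 53.2, 46.6 and 48.7 in 1K, with all 3 coated day 7 libraries above every other library. Its interaction was 1.13 ± 0.21 (SE, limma adjusted p = 0.0201). Ma09_g11090 (chromosome 9, 7501710 to 7506638) was the only gene with 7A lower, and had 11.02, 9.23 and 9.64 in 7A, 15.8, 15.3 and 17.1 in 1A, 18.8, 22.0 and 18.4 in 7K and 14.5, 14.3 and 16.4 in 1K. It fell in coated pulp by 0.64 and rose in control pulp by 0.37 on the log2 scale, and the interaction was -1.01 ± 0.19 (SE, limma adjusted p = 0.0241). Within the GC groups the interactions of these 3 genes were 1.75, 1.12 and -0.79 in the lower and 1.68, 1.11 and -1.18 in the higher group. Of 25 alternatives they passed in 11, 17 and 16, with adjusted p-values up to 0.126, 0.0718 and 0.181. For Ma04_g27480 the adjusted p was 0.0522 to 0.122 without 7A_a, 7A_b, 1A_a, 1A_b, 7K_b, 7K_c, 1K_a, 1K_b or 1K_c. For Ma05_g19480 it was 0.0505 to 0.0718 without 7A_a, 1A_a, 7K_b, 7K_c, 1K_a or 1K_b, and for Ma09_g11090 it was 0.0534 to 0.0809 without 7A_b, 1A_a, 1A_c, 7K_b, 1K_a or 1K_b.

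Control pulp at day 7 departed in 8 genes, as the high group in 5 and the low group in 3. Ma09_g27900 (chromosome 9, 38763963 to 38765320) was lowest in 7K, with an FPKM of 181, 174 and 197 in 7A, 363, 331 and 329 in 1A, 83.5, 85.3 and 93.9 in 7K and 401, 359.6 and 382 in 1K. All day 1 libraries lay between 329 and 401 with the treatments overlapping, and the gene fell in both treatments, by 0.89 in coated and by 2.11 in control pulp on the log2 scale. The coating difference at day 7 was 1.06 (adjusted p = 0.0132), and the interaction was 1.22 ± 0.18 (SE, limma adjusted p = 0.00701). Ma04_g25820 (chromosome 4, 27459025 to 27461177) had 27.1, 29.1 and 30.5 in 7A, 17.7, 18.4 and 17.4 in 1A, 12.8, 8.96 and 9.39 in 7K and 37.2, 26.4 and 26.3 in 1K. It rose in coated pulp and fell in control pulp between the days, with an interaction of 2.11 ± 0.25 (SE, limma adjusted p = 0.00253). Its coating difference was 1.41 (limma adjusted p = 0.0132) at day 7 and -0.70 (adjusted p = 0.0427) at day 1. Median-of-ratios scaling took Ma09_g27900 above 0.05 (adjusted p = 0.0715, between 2.29e-05 and 0.0715 over its alternatives), and Ma04_g25820 passed in all 25. Ma10_g13560 (chromosome 10, 26317519 to 26318011) came first among the genes with 7K higher that met the naming rule, at 2.42, 2.51 and 3.07 in 7A, 2.64, 2.97 and 2.84 in 1A, 6.31, 7.79 and 9.08 in 7K and 2.94, 1.30 and 2.91 in 1K. Ma10_g20620 (chromosome 10, 30699923 to 30704504) followed with 1.71, 2.64 and 2.03 in 7A, 1.62, 1.81 and 2.25 in 1A, 5.70, 5.13 and 3.80 in 7K and 1.40, 1.02 and 1.55 in 1K. Both were low throughout, with 32 to 61 implied fragments in 7K, and had interactions of -1.46 (SE 0.32, adjusted p = 0.0421) and -1.22 (SE 0.27, adjusted p = 0.0437). They passed in 9 of 25 and 7 of 24 alternatives, with adjusted p-values up to 0.182 in both. For Ma10_g13560 it was 0.0664 to 0.112 without 7A_a, 7A_b, 1A_a, 1A_b, 1A_c, 7K_b, 7K_c, 1K_a or 1K_b, and for Ma10_g20620 it was 0.0609 to 0.123 without 7A_a, 7A_b, 7A_c, 1A_a, 1A_b, 1A_c, 7K_a, 7K_b, 1K_a, 1K_b or 1K_c.

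By the rule on means no single group departed in 168 genes, and these are described by the day changes of their group means. By the sign of the mean change alone, whatever its size, both treatments changed downwards in 66 of them and both upwards in 54. They moved in opposite directions in 48. Of all tested genes, 14.8% moved in opposite directions. The coating difference was larger at day 1 in 133 of the 168 and larger at day 7 in 35, against 61.2% of all tested genes with the larger difference at day 1. The 168 became 61 without 7A_a, 62 without 7A_b, 52 without 1A_a, 56 without 7K_b, 86 without 7K_c, 43 without 1K_a, 58 without 1K_b and 111 without 1K_c. The most frequent pattern, with 47 genes, was a downward change in both that was larger in coated pulp, with the larger coating difference at day 1. Of the 13979 tested genes without a departing group, called or not, 1397 had this pattern. In the 47 genes the median day changes were -3.05 in coated and -1.55 in control pulp. Their median coating differences were -0.22 at day 7 and 1.05 at day 1. The counterpart among 22 genes, of 3517 tested ones, was an upward change in both that was larger in coated pulp. Medians of the 22 were 3.43 in coated and 1.75 in control pulp, with a coating difference of 0.22 at day 7 and -1.11 at day 1. A further 27 genes (of 375 tested) changed downwards in coated and upwards in control pulp with the larger coating difference at day 1. The reverse held in 14 genes (of 333 tested). With the larger difference at day 7, 14 genes (of 3537 tested) changed upwards in both treatments and less so in coated pulp. Their medians were 1.40 in coated and 2.83 in control pulp. The largest interaction of all, 11.01 in Ma09_g21730 (chromosome 9, 33594118 to 33594328, adjusted p = 0.014 from limma), was picked out after its values were seen and rests on at most 2 implied fragments in a library, of a gene span of 210 bp.

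Ma11_g02330 (chromosome 11, 1680077 to 1681974) crossed over between the treatments. Its FPKM was 6.85, 10.05 and 5.74 in 7A, 1.71, 0.914 and 1.97 in 1A, 3.01, 1.79 and 1.64 in 7K and 6.07, 4.40 and 4.74 in 1K, with coated pulp below control pulp at day 1 and above it at day 7 and no overlap on either day. The coating difference was 1.44 (adjusted p = 0.0758) at day 7 and -1.28 (adjusted p = 0.0153) at day 1. The interaction was 2.71 ± 0.36 (SE, limma adjusted p = 0.00506), with 2.69 in the lower and 2.53 in the higher GC group. Ma04_g38580 (chromosome 4, 36047515 to 36048760) had 1.97, 1.96 and 3.66 in 7A, 13.8, 14.4 and 10.8 in 1A, 0.708, 1.26 and 2.71 in 7K and 59.8, 58.5 and 65.8 in 1K, and fell in both treatments to a low level. At day 1 the coated pulp was already lower, and its interaction was 2.67 ± 0.40 (SE, limma adjusted p = 0.00855). Both passed in all 25 alternatives, with adjusted p-values of at most 0.0331. Ma03_g14740 (chromosome 3, 14527089 to 14528465) had 5.53, 4.38 and 5.33 in 7A, 18.4, 11.7 and 12.6 in 1A, 1.24, 4.79 and 1.84 in 7K and 0.297, 0.794 and 0.28 in 1K, so that 1A was the highest group, 1K lay under 1 and the day 7 groups overlapped in range. Its interaction was -2.52 ± 0.46 (SE, limma adjusted p = 0.0208). Ma11_g23090 (chromosome 11, 26585517 to 26588237) had 0.598, 0.355 and 0.321 in 7A, 39.4, 43.2 and 100.2 in 1A, 0.175, 0.38 and 0.0887 in 7K and 10.2, 9.06 and 4.75 in 1K and fell to an FPKM under 1 in both treatments. Its interaction was -2.48 ± 0.50 (SE, limma adjusted p = 0.03), and it passed in 12 of 25 alternatives, with adjusted p-values between 0.000151 and 0.553 and with 0.553 from voom. Without 7A_a, 7A_b, 7A_c, 7K_a, 7K_b, 7K_c, 1K_a, 1K_b or 1K_c it was 0.0525 to 0.0922. Ma03_g14740 passed in 20 of 25, with adjusted p-values between 0.00178 and 0.0694, and with 0.0537 to 0.0694 without 7A_a, 7A_b, 1A_a or 1K_a.

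The interaction was also computed from the 5 libraries with lower and from the 7 with higher read GC, which share no library. All 470 genes had the same sign in both, as the test over all libraries favours, against 72.7% of all tested genes. Over all 19745 tested genes, which were not selected, the 2 sets of interactions had a Pearson r of 0.578 across genes, which share libraries and depth and are not independent replicates. The classes were chosen on these same 12 libraries, which favours like values in both GC groups, so their medians are descriptions. In the 172 genes with 1A higher the median interaction was -1.73 in the lower and -1.79 in the higher GC group. In the 45 genes with 1A lower it was 1.40 and 1.41, in the 31 with 1K higher 1.21 and 1.41, and in the 43 with 1K lower -1.56 and -1.61. Within 1A both lower GC libraries lay above 1A_c in 61 of the 172 genes and below it in 64, against 28.7% and 60.6% of all tested genes. The lower GC value rests on a single library in each of 7A, 7K and 1K and the higher GC value on a single library of 1A, 1A_c, so neither has a replicate check in those groups.

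**Figure D5:**
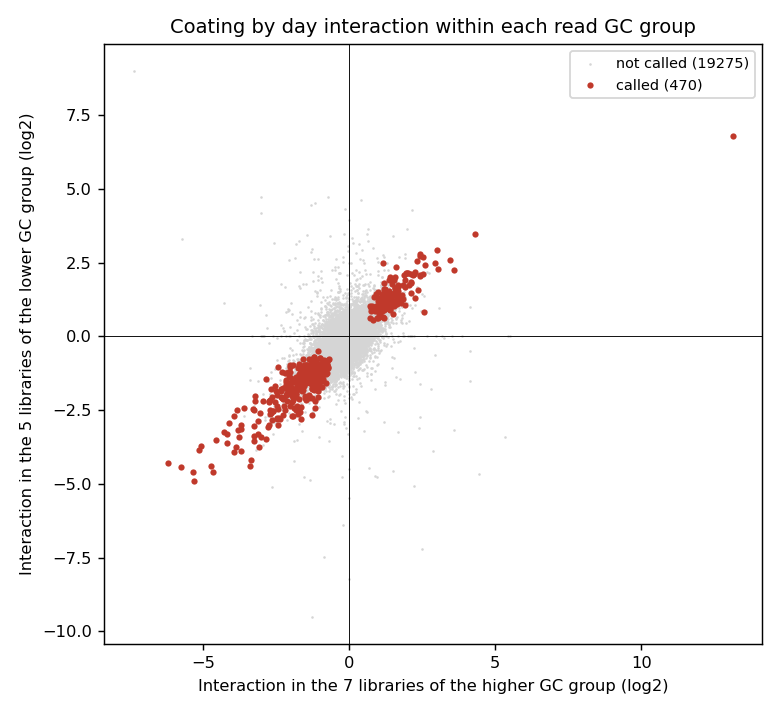
Interaction on the log2 scale in the 5 libraries of the lower read GC group (vertical axis) and in the 7 of the higher group (horizontal axis), 1 point per tested gene. The 470 genes of the interaction have the same sign on both axes, which their selection favours, as do 72.7% of all tested genes.

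The genes of the interaction were found on every chromosome. Each of the 11 chromosomes held between 27 and 59 of them, which is 1.80% of the tested genes of chromosome 9 to 3.17% of those of chromosome 5. Of the genes with 1A higher, chromosome 6 held 23 and chromosome 1 held 6. In all, 28 of the 470 genes lay directly beside another one in the order of the tables, in 14 adjacent pairs, and 8 of the 172 genes with 1A higher did so in 4 pairs. Near-identical neighbouring copies can share fragments under the mapping of the study, and their values were not separated here.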

How the data were processed

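The submitters' processing notes name FastQC, TopHat and Cufflinks, whose version differs between the sources used here. Paired-end reads were mapped by the authors to the DH Pahang version 2 genome, and the deposited tables give FPKM per gene with confidence bounds. Multi-mapping and strand settings are not given in the sources used here. Implied fragments were computed from those bounds and are not read counts. The row without an ID and 1 gene with a failed estimate were left out, and 1 ID stands on 2 rows. The test took genes with an FPKM of 1 or more in 3 or more libraries and used log2(FPKM + 1) with limma 3.58.1 in R 4.3.3, with a trend, over all 12 libraries, two-sided, and adjusted over all tested genes by Benjamini-Hochberg. The 1 added to the FPKM before the log understates changes of low genes. Group membership follows the labels, and the GC groups follow the read statistics of the study. Named genes were up to 2 per side of each departing group with the largest departure and no overlap of libraries, a span of at least 300 bp and at least 10 implied fragments in every library of the higher side, and up to 2 per sign without a departing group by the largest interaction. The members, classes and naming rule were chosen with earlier results of these data known. Each p-value sets a difference of group means against the spread between replicates within groups. That spread is estimated from all 12 libraries together and moderated over genes.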

Additional observations from a re-analysis of the deposited data

Results flagged for a closer look

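Coated and control pulp differed in their change between day 1 and day 7 by the test of the interaction itself in each of the 19 named genes, which is what set them out for a closer look. Among genes with day 1 coated pulp high, the interaction was -5.38 in Ma06_g06180 and -4.09 in Ma03_g09020 on the log2 scale. The FPKM of Ma03_g09020 did not follow its own confidence bounds, and limma with voom on the implied fragments gave -0.38 (adjusted p = 0.878). The interaction was 2.42 in Ma04_g21640 and 3.28 in Ma05_g14110 among those with day 1 coated pulp low. Among genes with day 1 control pulp high, the interaction was 3.76 in Ma03_g17050 and 3.38 in Ma09_g05790. It was -4.56 in Ma09_g24220 and -5.34 in Ma06_g36310 among those with day 1 control pulp low. Among genes with day 7 coated pulp high, the interaction was 1.88 in Ma04_g27480 and 1.13 in Ma05_g19480. It was -1.01 in Ma09_g11090 among those with day 7 coated pulp low. Among genes with day 7 control pulp high, the interaction was -1.46 in Ma10_g13560 and -1.22 in Ma10_g20620. It was 1.22 in Ma09_g27900 and 2.11 in Ma04_g25820 among those with day 7 control pulp low. Among genes with no single departing group and a positive value, the interaction was 2.71 in Ma11_g02330 and 2.67 in Ma04_g38580. It was -2.52 in Ma03_g14740 and -2.48 in Ma11_g23090 among those with no single departing group and a negative value. All 19 kept the sign of the interaction in every alternative in which they were tested, and 8 of the 19 kept an adjusted p under 0.05 in all of theirs. A group of 3 libraries is too small for a search for single outlying libraries.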

How the results depend on the processing

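The count of 470 interaction genes was 288 after scaling to a common FPKM sum, 3945 with the GC group as a block, 3355 with that block and quantile normalization, and 273 with voom on the implied fragments. Leaving out single libraries gave 161 to 504 in all, 88 to 219 for 1A, 26 to 78 for 1K, 0 to 9 for 7A, 1 to 12 for 7K and 43 to 188 for no departing group. By departing group in the order 1A, 1K, 7A, 7K and none, the main counts 217, 74, 3, 8 and 168 became 973, 604, 103, 157 and 2108 with the GC block and 906, 570, 86, 125 and 1668 with that block and quantile normalization. Voom gave 107 for 1A, 3 for 7K and 105 for none. The common FPKM sum gave 48 for 1K, 0 for 7A, 2 for 7K and 86 for none. A pseudocount of 0.1 gave 5 for 7K, a pseudocount of 5 gave 6 for 7A, and no filter gave 6 for 7A and 20 for 7K. Median-of-ratios scaling gave 7 for 7A and 13 for 7K, and quantile normalization 11 and 15. A gap of more than 2 times the range gave 123, 35, 0, 3 and 309 for 1A, 1K, 7A, 7K and none. Sorting by libraries that do not overlap gave 297, 117, 15, 26 and 15 in the same order. No named gene changed sign in any alternative. The causes were not tested.

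The sources used here do not state that the replicate letters pair the samples. Deviations of samples with the same letter correlated at over 0.1 in 9 of 18 pairs of libraries, from -0.87 to 0.85. Those with different letters did so in 18 of 36. The lower GC library is c in 1K, 7K and 7A, but a and b in 1A. Letter and GC group are therefore mixed, and these correlations cannot decide whether the letters pair samples. With the replicate block 221 genes were called, 220 of them among the 470, with 118, 37, 1, 4 and 61 for 1A, 1K, 7A, 7K and none. The replicate block with the GC block gave 3394, with 902, 535, 85, 121 and 1751.

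Within a GC group, groups with 1 library leave values without a count of calls. Low fragment numbers limit genes under about 10 implied fragments. Fragments implied by the confidence bounds stood apart in 7A_c from the reads the study lists, and voom rests on them.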
